A study of Homo sapiens with 18 samples.

Results

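Collagen genes were taken as all genes of the table whose symbol reads COL, digits, A and digits. They numbered 44 of 58302 genes, of which 37750 were above 0 in at least 1 of the 18 libraries. A member was treated as measured when its mean over the 18 libraries was at least 10, which held for 23 of the 44. The members nearest this limit were COL14A1, with a mean of 14.4, and COL9A3, with a mean of 8.78. By class, 6 of 11 fibrillar, 5 of 6 basement membrane, 4 of 5 collagen VI, 3 of 10 fibril-associated, 1 of 3 network-forming, 1 of 2 multiplexin and 2 of 4 transmembrane genes were measured, with 1 of the other 3, COL7A1. Not measured were COL1A2, COL2A1, COL3A1, COL4A3, COL5A3, COL6A6, COL8A2, COL9A1, COL9A2, COL9A3, COL10A1, COL11A1, COL15A1, COL19A1, COL20A1, COL21A1, COL22A1, COL23A1, COL25A1, COL26A1 and COL28A1.

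Messenger RNA had been sequenced in TPC1, a cell line from a papillary thyroid carcinoma, and in D11, a Dicer1 (+/-) clone made from TPC1 by CRISPR-Cas9. Each line was left non-transfected (NT), given 5 nM of a negative control siRNA (NC) or given 5 nM of siRNA against Dicer1 (siDicer), and RNA was taken on day 4. Each of the 6 groups held 3 replicates, and the control group of a line was its NT and NC libraries together. D11 is 1 clone, so what the clone carries and what the heterozygous genotype does cannot be told apart. The comparisons asked how the collagens differed after Dicer1 depletion in each line, after transfection alone, and between the lines. The values are normalised read counts, with each library scaled to 20 M aligned reads (M is the SI prefix mega).

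Collagens are extracellular matrix proteins in which alpha chains wind into a triple helix. Fibrillar types assemble into the tension-bearing fibres of connective tissue, type IV forms the meshwork of basement membranes on which epithelial cells sit, and collagen VI forms beaded filaments between the basement membrane and the fibres. Dicer, the product of DICER1, cuts hairpin precursors into mature miRNAs, which lower the output of mRNAs that match their seed, mostly in the 3′ UTR. The miR-29 family is known for lowering collagens and other matrix genes, and let-7 for lowering growth genes.

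Because many collagens are textbook targets of miR-29, the miR-29 sequences and the matches in the collagen 3′ UTRs are shown before the values. The mature sequences, from RefSeq (GRCh38.p14), carry the seed, bases 2 to 8, in capitals, and all share it.
hsa-miR-29a-3p: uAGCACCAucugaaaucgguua
hsa-miR-29b-3p: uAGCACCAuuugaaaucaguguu
hsa-miR-29c-3p: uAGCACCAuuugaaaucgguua

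The letters complementary to the seed, TGGTGCT, were searched on the transcript strand in the 3′ UTR of the canonical transcript (GENCODE release 44, GRCh38). They occurred in 15 of the 23 measured collagens (65.2%) and in 2163 of the 13272 tested genes with a 3′ UTR (16.3%). COL5A1 held 4 matches, COL4A4 3 and COL7A1 2. A single match each was found in COL1A1, COL4A1, COL4A2, COL4A5, COL4A6, COL5A2, COL6A2, COL6A3, COL8A1, COL16A1, COL24A1 and COL27A1. In COL6A1, COL6A5, COL11A2, COL12A1, COL13A1, COL14A1, COL17A1 and COL18A1 the letters were not found in the 3′ UTR searched. Shown are windows of 25 bases with the match in capitals, for genes that rose most or in a pair (COL5A1, COL4A1, COL4A2, COL6A2) and for COL1A1 and COL8A1, which hold a match and did not pass the test.
COL5A1, match at UTR base 1039, chr9:134843330-134843354, plus strand: ctcaatgaaaatTGGTGCTtatttt
COL5A1, match at UTR base 1079, chr9:134843370-134843394, plus strand: gtggctctcttgTGGTGCTatctat
COL5A1, match at UTR base 1413, chr9:134843704-134843728, plus strand: cctgaatgtttgTGGTGCTaatttc
COL5A1, match at UTR base 1794, chr9:134844085-134844109, plus strand: cctgcggggctcTGGTGCTgtcccc
COL4A1, match at UTR base 30, chr13:110150321-110150345, minus strand: aatgtcacaacaTGGTGCTacttct
COL4A2, match at UTR base 28, chr13:110512207-110512231, plus strand: gaagggccatttTGGTGCTtattct
COL6A2, match at UTR base 50, chr21:46132590-46132614, plus strand: ccaccccgtccaTGGTGCTaagcgg
COL1A1, match at UTR base 923, chr17:50184567-50184591, minus strand: ggagggaatcacTGGTGCTatagaa
COL8A1, match at UTR base 2624, chr3:99798748-99798772, plus strand: tgcattctacaaTGGTGCTaatctc

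A match is a description of the letters and not a shown binding site. Mature miRNA levels are not part of these libraries.

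Depth ran from 11.3 to 23.2 M reads per library, so that 1 read was worth 0.861 to 1.77 on the scale of the values. Groups follow the sample descriptions, which name other groups than the titles for 12 of the 18 samples. DICER1, the targeted gene, followed the descriptions. It stood at 1582, 1510 and 1397 in TPC1 NT, 2492, 1901 and 2366 in NC, then 255, 395 and 246 in siDicer. In D11 it stood at 655, 1157 and 923 in NT, 1536, 1433 and 1407 in NC, then 297, 451 and 277 in siDicer. DICER1 was thus highest in replicate 2 of both siDicer groups. Among thyroid follicular markers, PAX8 ranged from 7361 to 14886, TG from 32 to 124 and FOXE1 from 61 to 214, while TSHR reached at most 2 and NKX2-1 was at 0. Endothelial markers summed to 2 to 18 and leukocyte markers to 2 to 26. The 6 fibroblast markers summed to 145 to 249 in TPC1 controls and 327 to 713 in TPC1 siDicer, and to 53 to 98 and 99 to 158 in D11. LUM reached 273 to 517 in TPC1 siDicer, from 89 to 157 in controls, and PDGFRB 62 to 112 in D11 siDicer, from 17 to 42. THY1 did not follow, at 21 to 26 in TPC1 siDicer and 18 to 58 in controls (log2 -0.60, not called) and with log2 -0.36 in D11. PDGFRA reached at most 9, with 2 to 3 in TPC1 siDicer and 4 to 9 in TPC1 controls, FAP at most 3, and DCN was at 0 in all 18 libraries. The study states in general that its experiments were repeated independently, but the labels do not say that these replicates came from separate cultures. If they did not, p-values measure only a technical spread between libraries. In bulk RNA a change in cell number and a change in RNA per cell cannot be told apart.

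After siDicer, 10 of 23 measured collagens (43.5%) were called higher in TPC1 and none lower. A call required both an adjusted p under 0.05 (limma, Benjamini-Hochberg over all tested genes) and at least 1.5 times between the fitted means. Over all genes tested in TPC1, 3.22% were called higher and 4.16% lower. In D11, 11 of 23 collagens (47.8%) were called higher and none lower, against 5.26% and 6.75% of all genes tested. An unadjusted p under 0.05 was reached by 13 of 23 collagens in TPC1, beside 5629 of all 18475 genes, and by 14 of 23 in D11, beside 6542 of 18413. These collagens all had a positive change, and voom on recovered reads also called none lower. The 10 called in TPC1 were also called in D11, which added COL12A1. The median log2 change of the 23 collagens was 0.60 in TPC1 and 0.76 in D11, while the median over all genes was -0.04 in each line. All siDicer libraries lay above all control libraries for 7 collagens in TPC1 (7.62% of all genes) and 11 in D11 (11%), and below them for none (9.91% and 14.1%). COL6A5 passed the filter on low values in TPC1 through its siDicer libraries alone. In D11 NC replicate 1, at 28, was the only control library of at least 10. Its control means, 3.67 in TPC1 and 7.17 in D11, were under 10, so it counts as measured through its siDicer libraries. Without COL6A5 the counts were 9 of 22 in TPC1 and 10 of 22 in D11, and the median log2 changes were 0.55 and 0.61.

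The TPC1 count rested on siDicer replicates 1 and 3. Without replicate 1, COL5A1 alone was called, beside 159 of 18356 genes higher over all genes. Without replicate 3, COL5A1, COL6A1 and COL6A2 were called, beside 168 of 18367, and without replicate 2, which kept the most DICER1, 11 were called, beside 844 of 18308. COL6A5 was not tested in any of these 3 fits. In D11, leaving out any library gave 9 to 12 collagens, beside 592 to 1106 genes higher over all genes. With the NC libraries alone as the control, the counts fell to 5 in TPC1 (COL5A1, COL6A1, COL6A2, COL6A5 and COL27A1) and 6 in D11 (the same list with COL4A1), and COL6A3 was called lower in D11. Over all genes, 509 of 17923 in TPC1 and 703 of 17887 in D11 were then called higher.

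**Figure D1:**
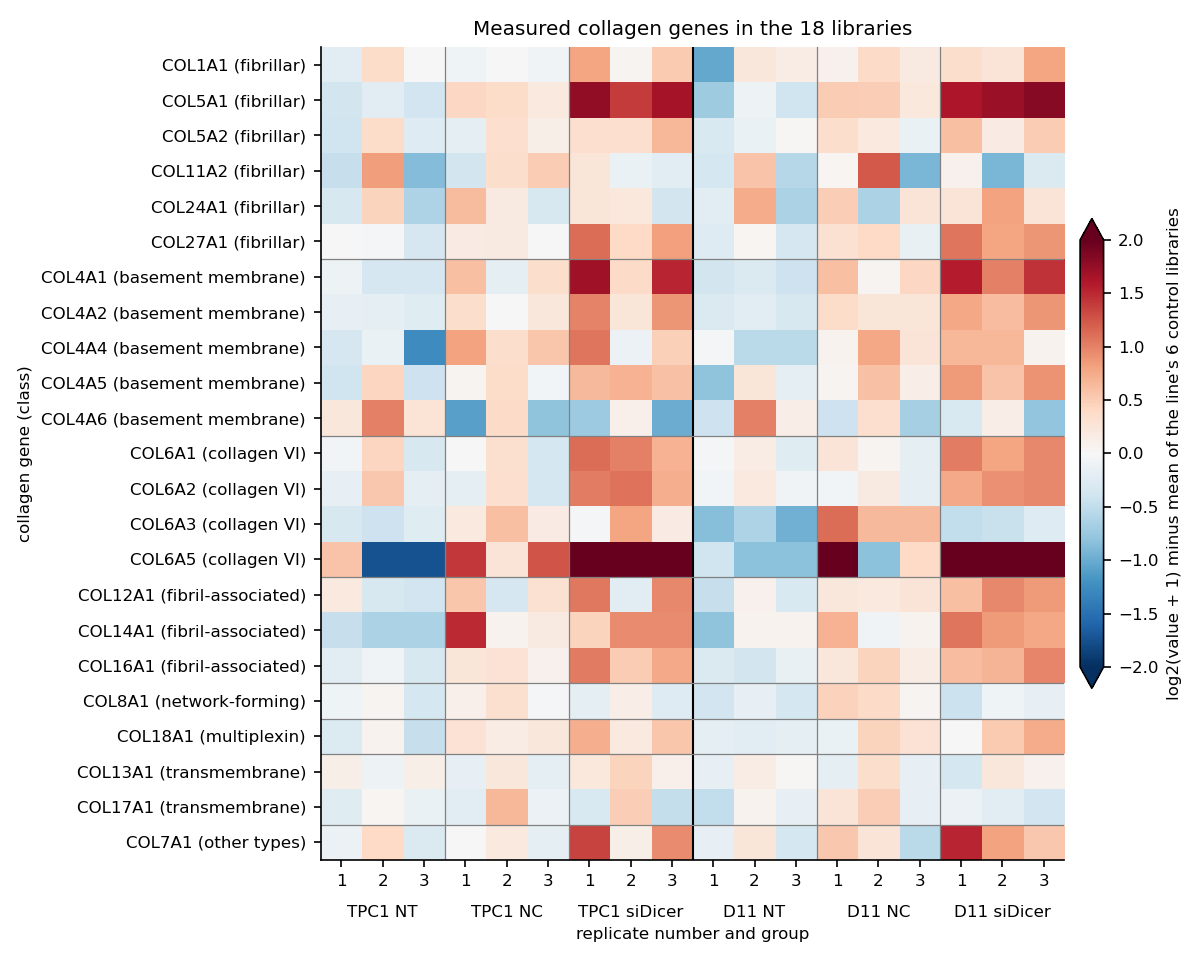
Log2(value + 1) of the 23 measured collagens in each of the 18 libraries, minus the mean of the 6 control libraries of the same line. Columns are replicates 1 to 3 of each group, rows are genes by class, and colours end at -2 and 2. COL5A1, COL4A1, COL6A1, COL6A2 and COL6A5 are red in every siDicer column, and TPC1 siDicer replicate 2 is paler than replicates 1 and 3 for COL4A1, COL4A2 and COL7A1.

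All 44 collagens together took 0.141% to 0.200% of each TPC1 control library and 0.268% to 0.369% of each TPC1 siDicer library. In D11 the shares were 0.1305% to 0.190% and 0.264% to 0.305%. The groups did not overlap in either line. COL4A1, COL4A2, COL6A1 and COL6A2 supplied 70.4% to 80.5% of the collagen total in each library. Per kilobase of exon, levels in TPC1 controls were led by COL6A1, at 1634 ± 368 (SD, n = 6), then COL6A2 at 780 ± 202. They were followed by COL4A2 at 413 ± 71.9, COL4A1 at 333 ± 95.8 and COL18A1 at 258 ± 50.1, neighbours whose spreads overlapped. COL1A1, the main chain of the fibres in bone and skin, was low, with 35 to 134 reads per 20 M, and its partner chain COL1A2 was not measured.

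The means over the 18 libraries, in reads per 20 M without division by length, were 10669 for COL6A1, 9848 for COL4A2, 6852 for COL4A1, 5013 for COL6A2, 2586 for COL18A1, 1500 for COL12A1 and 1085 for COL27A1. Between 100 and 1000 lay COL4A5 (902), COL5A1 (865), COL17A1 (775), COL8A1 (670.4), COL5A2 (505), COL13A1 (452), COL16A1 (244), COL7A1 (177) and COL4A4 (150.2). The lowest were COL1A1 (86.2), COL6A3 (48.9), COL6A5 (36.9), COL24A1 (33.6), COL11A2 (25.1), COL4A6 (22.4) and COL14A1 (14.4). These means pool lines and conditions, and the order differed within groups. In D11 NC, for example, COL4A2 (9780 ± 476, SD, n = 3) was above COL6A1 (7614 ± 1181). In D11 NT COL4A2 (6613 ± 228) was below COL6A1 (7221 ± 985), within their spread.

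Of the 6 fibrillar collagens, COL5A1 and COL27A1 were called higher in both lines and the other 4 in neither. The median log2 change of the class was 0.45 in TPC1 and 0.45 in D11. COL5A1, the chain that sets fibril diameter, was the collagen with the largest change among those well above the filter. Its values were 335, 369 and 330 in TPC1 NT, 572, 555 and 494 in NC, then 1480, 1142 and 1367 in siDicer. D11 gave 336, 511 and 419 in NT, 787, 776 and 636 in NC, then 1699, 1826 and 1938 in siDicer. Every siDicer library lay above every control library, and every NC library above every NT library. The ratio of the siDicer mean to the control mean was 3.01 in TPC1 (fitted log2 change 1.62, SE 0.20, adjusted p = 0.00108, limma) and 3.15 in D11 (fitted log2 change 1.72, SE 0.24, adjusted p = 0.000568, limma). It stayed called without any 1 library. With NC alone as the control it was also called, at a smaller log2 change of 1.29 in TPC1 and 1.32 in D11. Exons of COL5A1 overlap an antisense gene, ENSG00000286502, and since no source says whether counting used strand, reads of the pair cannot be told apart. The same holds for COL1A1 (ENSG00000249406) and COL18A1 (SLC19A1), and MIR936 lies in an exon of COL17A1. COL5A1 lies at chr9:134641803-134844843 on the plus strand (GRCh38).

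COL27A1, a fibrillar collagen of cartilage, stood at 872, 854 and 686 in TPC1 NT, 972, 978 and 858 in NC, then 1878, 1145 and 1529 in siDicer. D11 gave 689, 855 and 653 in NT, 1027, 1089 and 747 in NC, then 1731, 1435 and 1528 in siDicer. All siDicer libraries were above all controls, with TPC1 siDicer replicate 2 nearest to them. The log2 change was 0.78 (SE 0.15, adjusted p = 0.00949, limma) in TPC1 and 0.91 (SE 0.16, adjusted p = 0.00216, limma) in D11. The TPC1 call was lost without siDicer replicate 1 or 3, at log2 0.61 to 0.97 over the left-out libraries.

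COL5A2, which pairs with COL5A1 in the type V trimer, did not pass after siDicer. Its log2 change was 0.44 (SE 0.18, adjusted p = 0.119, limma) in TPC1 and 0.42 (SE 0.17, adjusted p = 0.0841, limma) in D11. COL1A1 had log2 changes of 0.45 and 0.46 in TPC1 and D11, and without TPC1 siDicer replicate 2 its TPC1 change was 0.66 and was called. COL24A1, a minor fibrillar collagen of bone, had 0.03 and 0.45, and COL11A2, a cartilage chain, had -0.03 and -0.37. These 4 had groups that overlapped in both lines.

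**Figure D2:**
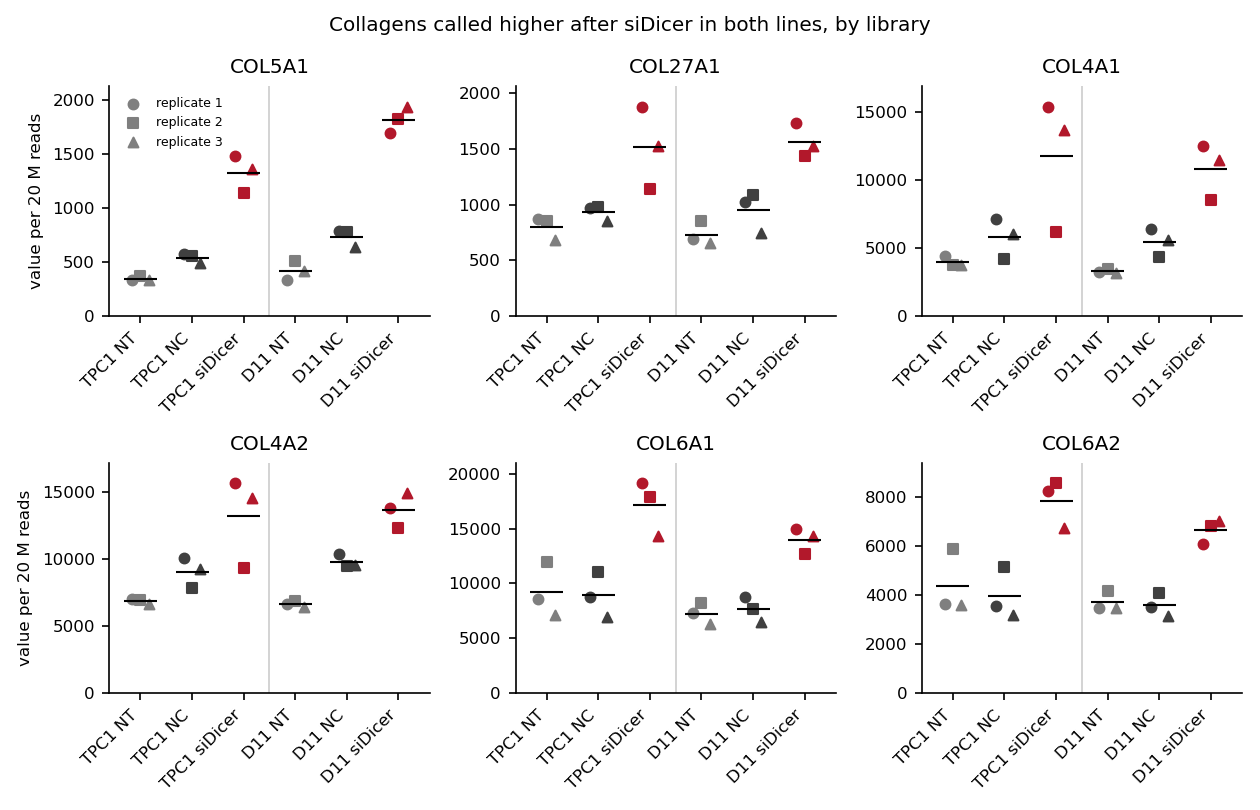
Normalised read count (reads per 20 M, vertical axes from 0) of 6 collagens in each library. Marker shapes stand for replicate numbers, horizontal bars for group means, grey for NT, dark grey for NC and red for siDicer. The red points lie above the grey ones of their line in all panels, except that TPC1 siDicer replicate 2 falls among the NC points of COL4A1 and COL4A2.

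Of the 5 measured basement membrane collagens, COL4A1, COL4A2 and COL4A5 were called higher in both lines, and COL4A4 and COL4A6 in neither. The class median was log2 0.64 in TPC1 and 0.76 in D11. COL4A1 and COL4A2, head-to-head neighbours on chromosome 13, encode the chains of the type IV trimer found in nearly all basement membranes. COL4A1 spans chr13:110148963-110307157 on the minus strand and COL4A2 chr13:110305812-110513209 on the plus strand. COL4A1 stood at 4400, 3741 and 3744 in TPC1 NT, 7166, 4198 and 6048 in NC, then 15383, 6172 and 13653 in siDicer. Its D11 values were 3265, 3458 and 3158 in NT, 6420, 4371 and 5618 in NC, then 12523, 8510 and 11506 in siDicer. TPC1 siDicer replicate 2 was the only siDicer library that fell within the controls. The ratio of the siDicer mean to the control mean of COL4A1 was 2.40 in TPC1 (fitted log2 change 1.20, SE 0.29, adjusted p = 0.0208, limma) and 2.48 in D11 (fitted log2 change 1.34, SE 0.22, adjusted p = 0.00146, limma).

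COL4A2 stood at 7018, 6941 and 6646 in TPC1 NT, 10048, 7824 and 9216 in NC, then 15613, 9317 and 14506 in siDicer. In D11 it was at 6574, 6858 and 6408 in NT, 10329, 9485 and 9525 in NC, then 13760, 12299 and 14894 in siDicer. As for COL4A1, TPC1 siDicer replicate 2 lay among the NC libraries. The log2 change of COL4A2 was 0.71 (SE 0.18, adjusted p = 0.0240, limma) in TPC1 and 0.76 (SE 0.16, adjusted p = 0.00542, limma) in D11. Per kilobase, the ratio of COL4A1 to COL4A2 was 0.606 to 0.937 in the 12 control libraries and 0.871 to 1.30 in the 6 siDicer libraries. That ratio was chosen after its values were seen and was not tested. In TPC1 both calls were lost without siDicer replicate 1 or 3 (COL4A1 at 0.96 to 1.61 and COL4A2 at 0.57 to 0.94 over all left-out libraries), and that of COL4A2 also without NT replicate 1. With NC alone as the control, COL4A1 lost its TPC1 call and COL4A2 lost its call in both lines. The log2 changes were then 0.94 in TPC1 and 0.99 in D11 for COL4A1, and 0.51 and 0.48 for COL4A2. The TPC1 call of COL4A2 was also lost with the GC and length trend removed. The exons of COL4A2 overlap its antisense genes COL4A2-AS1 and COL4A2-AS2.

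COL4A5, an X-linked chain of the kidney and skin basement membrane, had 654, 1166 and 647 in TPC1 NT, 896, 1109 and 831 in NC, then 1352, 1395 and 1292 in siDicer. Its D11 values were 345, 717 and 528 in NT, 627, 909 and 661 in NC, then 1089, 895 and 1126 in siDicer. The groups were apart in TPC1, and D11 siDicer replicate 2 fell below NC replicate 2. The log2 change was 0.64 (SE 0.19, adjusted p = 0.0420, limma) in TPC1 and 0.77 (SE 0.23, adjusted p = 0.0313, limma) in D11. Both calls were close to the threshold. The TPC1 call was lost without NT replicate 1 or 3, NC replicate 1 or 3 or any siDicer library (log2 0.56 to 0.73 over all left-out libraries), and also with no filter, with the GC and length trend removed, and with NT or NC alone as the control. In D11 it was lost without NT replicate 3 or siDicer replicate 1 or 3 (0.61 to 0.88), and with NC alone. COL4A4 stood at 146, 168 and 77 in TPC1 NT, 325, 237 and 272 in NC, then 387, 171 and 258 in siDicer, and its siDicer change was log2 0.48 (SE 0.41, adjusted p = 0.468, limma). COL4A6, at 9 to 59 reads per 20 M, had log2 changes of -0.54 in TPC1 and -0.32 in D11 with overlapping groups.

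Of the 4 measured collagen VI genes, COL6A1, COL6A2 and COL6A5 were called higher in both lines and COL6A3 in neither. COL6A1 and COL6A2, neighbours on chromosome 21, encode chains that need a further chain such as that of COL6A3 for assembly. They span chr21:45981770-46005050 and chr21:46098112-46132848, both on the plus strand. COL6A1 stood at 8544, 11905 and 7080 in TPC1 NT, 8768, 11031 and 6946 in NC, then 19126, 17842 and 14356 in siDicer. D11 had 7233, 8200 and 6231 in NT, 8774, 7654 and 6413 in NC, then 14915, 12668 and 14358 in siDicer. Groups were apart in both lines, and in contrast to type IV the NC and NT values lay in the same range. COL6A1 changed by log2 0.94 (SE 0.17, adjusted p = 0.00757, limma) in TPC1 and 0.92 (SE 0.11, adjusted p = 0.000328, limma) in D11.

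COL6A2 gave 3632, 5867 and 3577 in TPC1 NT, 3560, 5134 and 3183 in NC, then 8266, 8562 and 6740 in siDicer. In D11 it gave 3472, 4147 and 3459 in NT, 3489, 4078 and 3151 in NC, then 6095, 6816 and 7008 in siDicer. Again no siDicer library overlapped a control. Its log2 change was 0.95 (SE 0.18, adjusted p = 0.00917, limma) in TPC1 and 0.87 (SE 0.10, adjusted p = 0.000224, limma) in D11. Both genes lost their TPC1 call without siDicer replicate 1 (0.85 to 1.06 for COL6A1 and 0.88 to 1.05 for COL6A2 over all left-out libraries) and kept it with NC alone as the control. Per kilobase, COL6A1 was 1.74 to 2.42 times COL6A2 in the control libraries and 1.79 to 2.36 times in the siDicer libraries.

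COL6A5 was near the limit of detection in controls, with 4, 0 and 0 in TPC1 NT and 8, 3 and 7 in NC, and reached 180, 41 and 51 in siDicer. D11 had 3, 2 and 2 in NT, 28, 2 and 6 in NC, then 244, 43 and 40 in siDicer. Replicate 1 was the highest siDicer library in both lines. Its log2 change was 4.45 (SE 0.79, adjusted p = 0.00626, limma) in TPC1 and 3.85 (SE 0.75, adjusted p = 0.00364, limma) in D11. The size depends on the pseudocount added before the logarithm, and in TPC1 it was 5.70 with 0.1 and 2.66 with 10 in place of 1. Without any 1 of the TPC1 siDicer libraries, COL6A5 no longer entered the TPC1 fit. COL6A3, the long chain of the trimer, stood at 33, 31 and 35 in TPC1 NT, 48, 64 and 47 in NC, then 41, 73 and 47 in siDicer. D11 had 27, 32 and 25 in NT, 109, 78 and 78 in NC, then 35, 36 and 41 in siDicer. In D11 the NC libraries were thus the highest and the siDicer libraries lay near NT. Its siDicer change was log2 0.32 (SE 0.27) in TPC1 and -0.40 (SE 0.43) in D11, neither called. With NC alone as the control, COL6A3 was called lower in D11, at log2 -1.21.

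**Figure D3:**
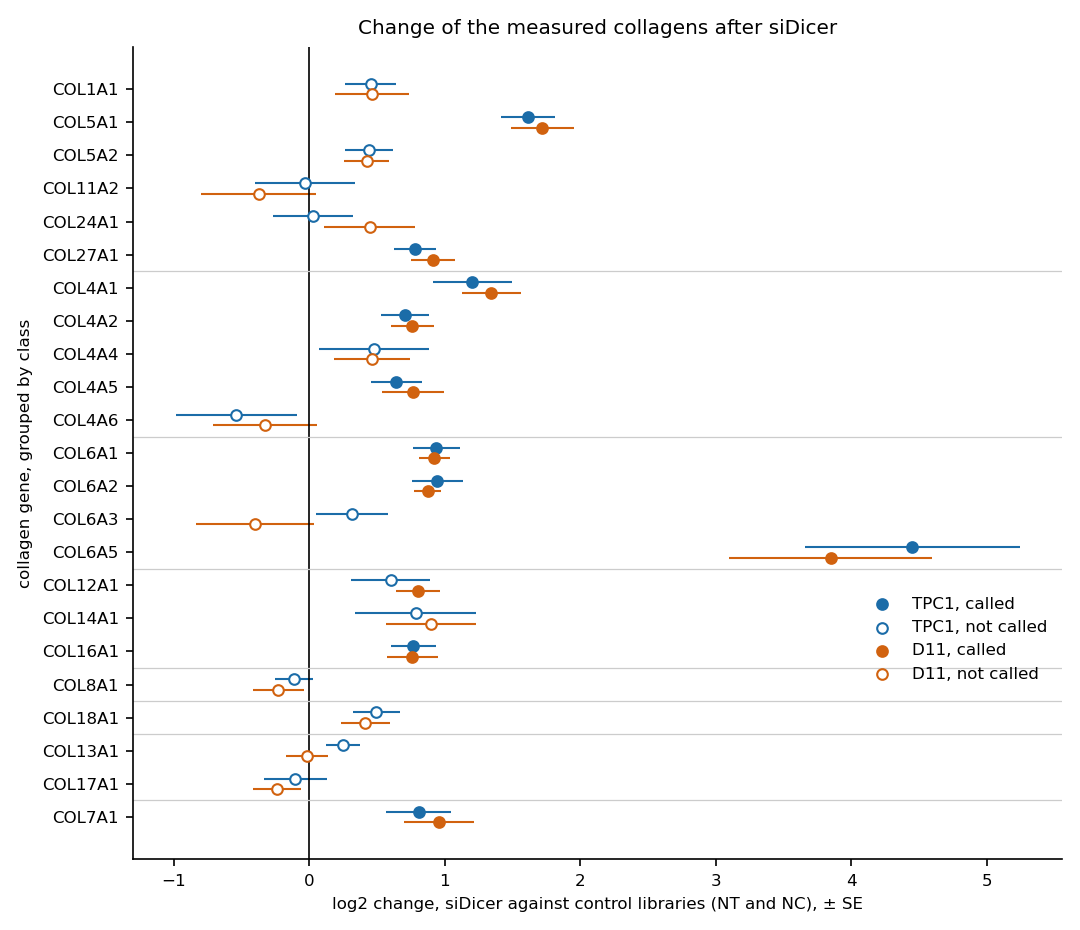
Log2 change of each measured collagen after siDicer against the NT and NC libraries of its line, with SE bars, for TPC1 (blue, 3 against 6 libraries) and D11 (orange, 3 against 6). Filled points were called. COL6A5 stands farthest to the right, then COL5A1 and COL4A1, and COL4A6, COL8A1, COL11A2 and COL17A1 lie left of 0 in both lines.

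The other classes held 12 measured genes when collagen VI was counted with them, of which 5 were called higher in TPC1 and 6 in D11. COL16A1, a fibril-associated collagen, stood at 216, 241 and 201 in TPC1 NT, 297, 308 and 269 in NC, then 519, 358 and 428 in siDicer. D11 had 112, 107 and 124 in NT, 161, 187 and 152 in NC, then 212, 222 and 272 in siDicer. The values were ordered NT, NC, siDicer in both lines with no overlap. The siDicer change was log2 0.77 (SE 0.17, adjusted p = 0.0133, limma) in TPC1 and 0.76 (SE 0.19, adjusted p = 0.0120, limma) in D11. With NC alone as the control it was called in neither line (0.56 and 0.49), and it was lost without TPC1 siDicer replicate 1 or 3 (0.63 to 0.90 over the left-out libraries) and without D11 siDicer replicate 3 (0.65 to 0.85). Exons of COL16A1 overlap PEF1-AS1 on the other strand.

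COL12A1, which sits on the surface of collagen I fibres, was called in D11 alone. It stood at 1455, 1018 and 967 in TPC1 NT, 1854, 1000 and 1560 in NC, then 2630, 1100 and 2457 in siDicer. In D11 it was at 831, 1205 and 917 in NT, 1334, 1307 and 1360 in NC, then 1723, 2218 and 2061 in siDicer. TPC1 siDicer replicate 2 lay among the controls, and all D11 siDicer libraries were above theirs. The log2 change was 0.60 (SE 0.29, adjusted p = 0.188, limma) in TPC1 and 0.80 (SE 0.16, adjusted p = 0.00473, limma) in D11. The difference between the lines, 0.20 (SE 0.36, D11 minus TPC1), did not pass its own test (adjusted p = 0.9998, limma). Without TPC1 siDicer replicate 2 the TPC1 change was 1.00 and was called.

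COL7A1, which forms the anchoring fibrils below the epidermis, had 153, 219 and 135 in TPC1 NT, 165, 190 and 147 in NC, then 427, 181 and 319 in siDicer. Its D11 values were 91, 121 and 80 in NT, 148, 122 and 70 in NC, then 296, 178 and 149 in siDicer. TPC1 siDicer replicate 2 again lay within the controls, and D11 siDicer replicate 3 exceeded the highest control by 1. The log2 change was 0.81 (SE 0.24, adjusted p = 0.0488, limma) in TPC1 and 0.96 (SE 0.26, adjusted p = 0.0195, limma) in D11. The TPC1 call was lost without any single library other than NT replicate 2 and siDicer replicate 2 (0.53 to 1.15), and the D11 call without siDicer replicate 1 (0.67). The TPC1 call was also lost with no filter, with NT or NC alone and in 1 fit of all 18 libraries, and the D11 call with NC alone. An exon of COL7A1 holds MIR711, whose reads share the strand.

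The remaining 5 did not pass in either line. COL18A1, the source of endostatin, had a mean of 2186 ± 424 (SD, n = 6) in TPC1 controls and 3066 ± 557 (n = 3) in siDicer, with log2 changes of 0.50 in TPC1 and 0.42 in D11. COL18A1 was called in TPC1 without siDicer replicate 2 (0.64) and in D11 without siDicer replicate 1 (0.63). COL14A1, a fibril-associated collagen at 5 to 34 reads per 20 M, had 0.78 and 0.90, its D11 groups did not overlap, and without NC replicate 1 it was called in both lines (1.08 and 1.04). COL13A1, a transmembrane collagen, had 0.25 and -0.02. COL17A1, the hemidesmosome collagen of keratinocytes, had -0.10 and -0.24. COL8A1, a network-forming chain of vessel walls and cornea, had -0.11 and -0.23.

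Transfection alone was read from NC against NT. In TPC1 none of 22 tested collagens was called (0.0333% of all genes higher and 0.0777% lower), and 9 of the 22 had an unadjusted p under 0.05, beside 2003 of all 18008 genes. With voom on recovered reads the TPC1 count was also 0. In D11, COL6A3 was called higher and none lower (0.150% of all genes higher and 0.200% lower), at log2 1.61 (SE 0.23, adjusted p = 0.0380, limma). That call was lost without NT replicate 3 or any NC library. With replicate number as a further term of the fit, COL4A4 and COL5A1 were called higher in TPC1. Over all genes, 300 of 18008 were then called higher and 265 lower. In D11 that fit called COL4A1, COL5A1, COL6A3 and COL8A1 higher, beside 195 of 17992 genes higher and 120 lower. The median log2 change of the tested collagens was 0.29 in TPC1 and 0.42 in D11, against 0.001 and 0.02 over all genes. All NC libraries lay above all NT libraries for 7 of 22 collagens in TPC1 (8.20% of all genes) and 9 of 22 in D11 (10.8%), and below them for none (8.33% and 9.03%). These were COL4A2, COL4A4, COL5A1, COL6A3, COL14A1, COL16A1 and COL18A1 in TPC1. The 9 in D11 were COL4A1, COL4A2, COL4A4, COL5A1, COL6A3, COL8A1, COL12A1, COL16A1 and COL18A1.

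The values of this comparison and those of the siDicer comparisons share the NC and NT libraries. COL5A1 differed by log2 0.65 (SE 0.12, adjusted p = 0.0926, limma) between NC and NT in TPC1 and by 0.81 (SE 0.17, adjusted p = 0.0959, limma) in D11. COL4A1 differed by 0.52 and 0.71, and COL4A2 by 0.39 and 0.56. By contrast COL6A1 differed by -0.03 and 0.07 and COL6A2 by -0.13 and -0.05. DICER1 itself was higher in NC than in NT, by 0.58 (adjusted p = 0.133, limma) in TPC1 and 0.71 (adjusted p = 0.153, limma) in D11, without passing the test.

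D11 was set against TPC1 over their 12 control libraries in a fit that also held transfection. Of 22 tested collagens, 3 were called lower in D11 and none higher, against 0.872% and 0.144% of all genes. The 3 were COL5A2, COL4A4 and COL16A1. All 6 D11 controls lay below all 6 TPC1 controls for COL5A2 and COL16A1 (0.951% of all genes), and above them for COL13A1 (0.308%). COL5A2 stood at 553, 943 and 611 in TPC1 NT, 641, 920 and 792 in NC, then 917, 918 and 1150 in siDicer. In D11 it stood at 130, 148 and 164 in NT, 206, 186 and 147 in NC, then 245, 181 and 231 in siDicer. The highest D11 library was thus below the lowest TPC1 library. COL5A2, at chr2:189031898-189225312 on the minus strand, differed by log2 -2.16 (SE 0.14, adjusted p = 9.76e-07, limma).

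COL4A4, whose chain belongs to the type IV trimer of the kidney glomerulus, was at 62, 43 and 43 in D11 NT, 66, 108 and 75 in NC, then 100, 100 and 66 in siDicer. The groups overlapped through TPC1 NT replicate 3, at 77. COL4A4 differed by log2 -1.54 (SE 0.20, adjusted p = 0.000562, limma) and COL16A1 by -0.87 (SE 0.09, adjusted p = 0.000115, limma). COL5A1, by contrast, differed by 0.35 (SE 0.10, adjusted p = 0.181, limma), so that in controls COL5A2 per kilobase was at 102 ± 22.7 beside COL5A1 at 39.7 ± 9.95 in TPC1, and at 22.3 ± 3.84 beside 51.8 ± 16.7 in D11 (SD, n = 6). COL13A1 differed by 0.46 (SE 0.11, adjusted p = 0.0825, limma). At an unadjusted p under 0.05, 2 of 22 collagens were higher and 7 lower in D11, beside 1853 of all 18814 genes in either direction. With voom, none was called higher and 3 lower, beside 28 and 161 of all genes. Without D11 NC replicate 1, COL7A1 was called lower as well. LUM, which encodes the collagen-binding proteoglycan lumican, was called lower, with 89 to 157 in TPC1 controls and 0 to 2 in D11 controls.

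**Figure D4:**
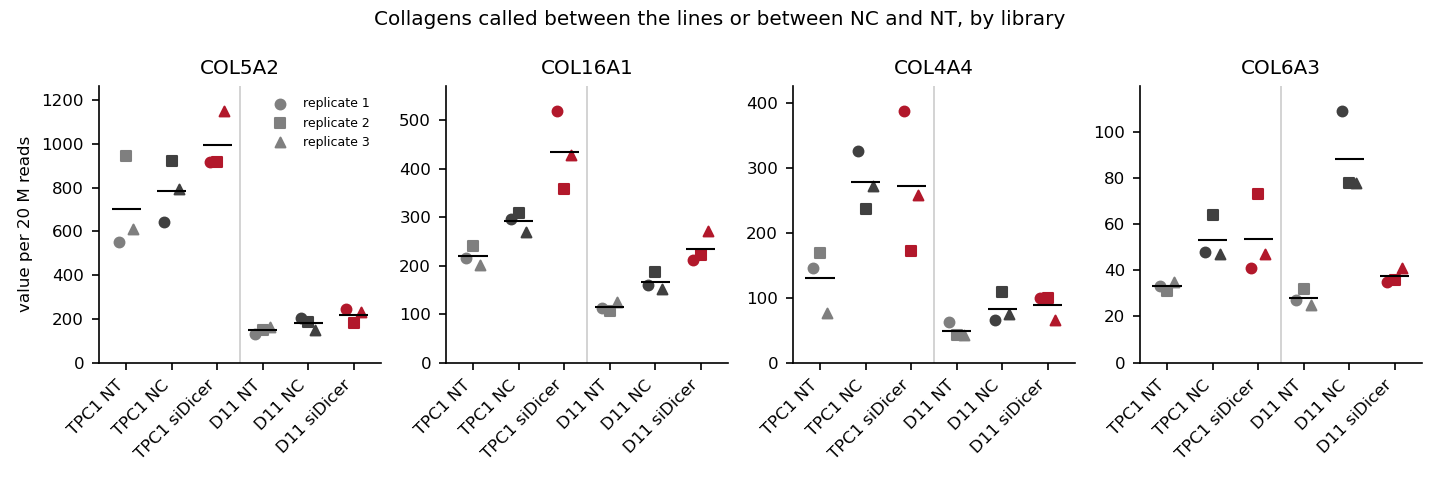
Normalised read count (reads per 20 M, vertical axes from 0) of COL5A2, COL16A1, COL4A4 and COL6A3 in each library, with shapes for replicate numbers and bars for group means. The D11 points of COL5A2 lie at 130 to 245, below all TPC1 points at 553 to 1150, and the D11 NC points of COL6A3 lie at 78 to 109, above the NT and siDicer points of that line.

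Whether the siDicer change differed between the lines was tested by the interaction of line and siDicer over 18 libraries. None of 23 collagens was called (0% of all genes in either direction), and 0 of 23 had an unadjusted p under 0.05, against 133 of 19181 genes. With voom on recovered reads the count was also 0. The largest difference of the 23 was that of COL6A3, at log2 -0.72 (SE 0.55) (D11 minus TPC1), beside -0.60 (SE 1.18) for COL6A5. That these tests missed the threshold does not show that the lines responded alike.

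The change after siDicer is set beside the number of miR-29 seed matches as a description. In D11, the median log2 change was 0.76 over the 15 collagens with a match and 0.61 over the 8 without. In TPC1 it was 0.64 and 0.55. The 8 include COL6A5, which counts as measured through its siDicer libraries. Without COL6A5, the middle value of those without a match was that of COL18A1, at 0.42 in D11 and 0.50 in TPC1. Over all tested genes with a 3′ UTR, the medians with and without a match were 0.07 and -0.06 in D11 and 0.04 and -0.05 in TPC1. COL5A1, with 4 matches, had the largest change of the 15, while COL4A4, with 3, was not called. Of the 15 with a match, 8 were called higher in each line. Of the 8 without, 2 were called in TPC1 (COL6A1, COL6A5) and 3 in D11 (adding COL12A1). Of 13272 tested genes in TPC1, 2163 held a match, and 124 of those were called higher, beside 349 genes without one. Of 13195 in D11, 2148 held a match, and 211 of those were called higher, beside 575 genes without one. Genes with a match were 16.3% of those tested in each line, so these counts come from groups of unlike size. COL8A1 and COL4A6, with 1 match each, had changes below 0 in both lines. The let-7 match CTACCTC was found in 8 of 23 measured collagens (34.8%) and 11% of tested genes, and 1 of those 8, COL27A1, was called in each line. Over all genes with a let-7 match, 81 of 1465 were called higher in TPC1 and 125 of 1457 in D11. Among the far more numerous tested genes without a let-7 match, 392 were called higher in TPC1 and 661 in D11. The median change of the collagens was log2 0.45 with and 0.71 without a let-7 match in TPC1, and 0.45 and 0.77 in D11.

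**Figure D5:**
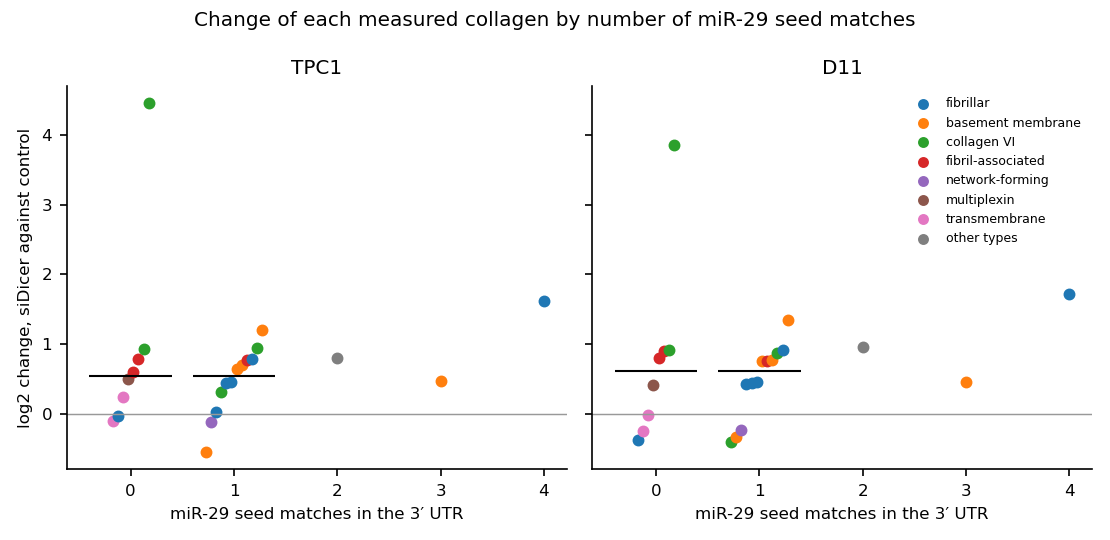
Log2 change after siDicer of each measured collagen against the number of miR-29 seed matches in its 3′ UTR, in TPC1 (left) and D11 (right), coloured by class. Bars are medians over the genes with 0 or 1 match. Genes with 0 and with 1 match cover overlapping ranges, and COL5A1, with 4, lies at 1.62 in TPC1 and 1.72 in D11.

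Genes that modify, process or bind collagen were read from lists chosen with earlier results of these data known. Over all genes, 3.22% were called higher and 4.16% lower in TPC1, and 5.26% and 6.75% in D11. With lists this short, 1 or 2 calls do not describe a list. Of 20 modifying enzymes and chaperones tested, 1 was called higher and 1 lower in TPC1, and 2 higher in D11, with medians of 0.05 and 0.01. COLGALT1, which puts galactose on hydroxylysine, rose in both lines (log2 0.61 in each, adjusted p = 0.0154 in TPC1 and 0.00179 in D11, limma). P4HA2, a prolyl hydroxylase subunit, rose in D11 (log2 0.77, adjusted p = 0.00551, limma), and COLGALT2, at 21.7 ± 2.52 (SD, n = 3) in siDicer and 38.8 ± 7.08 (n = 6) in controls, was lower in TPC1. Of 6 propeptide processing genes tested, 1 was higher and 2 lower in each line. BMP1, the C-propeptidase, rose by log2 0.81 in TPC1 and 0.74 in D11, while its enhancers PCOLCE and PCOLCE2 fell. PCOLCE2 was at 68.7 ± 26.4 in TPC1 siDicer (SD, n = 3) and 171 ± 36.0 in controls (n = 6), and at 49.3 ± 11.2 and 143 ± 16.6 in D11. PCOLCE changed by log2 -1.54 in TPC1 and -1.47 in D11. The 5 cross-linking lysyl oxidases did not pass, with medians of 0.06 and 0.01, and the nearest was LOX at log2 0.94 (adjusted p = 0.190, limma) in TPC1.

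Of 5 turnover genes tested, 1 was higher in TPC1, and 1 was higher and 1 lower in D11. The shares over all genes, for this and the next lists, were 3.22% higher and 4.16% lower in TPC1. In D11 they were 5.26% and 6.75%. MMP2, the type IV collagenase, had a mean of 5884 ± 1305 in TPC1 siDicer (SD, n = 3) and 1602 ± 290 in controls (n = 6), and 7033 ± 1474 and 1751 ± 601 in D11. The log2 change was 1.87 (adjusted p = 0.000503, limma) and 2.05 (adjusted p = 0.000250, limma). MRC2, a receptor that takes up collagen fragments, fell by 0.63 in D11. Of the collagen receptors, 2 of 9 tested were higher in TPC1 and 2 of 8 in D11, both integrin chains, while the list medians were -0.02 and -0.26. ITGA2, another collagen-binding integrin chain, had log2 -0.73 (adjusted p = 0.0503, limma) in TPC1 and -0.64 (adjusted p = 0.122, limma) in D11. ITGA11 rose by log2 1.06 and 1.01, and ITGA1 by 0.62 and 0.68. Among matrix partners, 3 of 7 were higher in TPC1 (LUM, SPARC, FBN1) and 3 of 6 in D11 (SPARC, FN1, FBN1), with medians of 0.68 and 0.54. SPARC, which binds fibrillar collagen and type IV, went from 16570 ± 4693 (SD, n = 6) to 36940 ± 2642 (n = 3) in TPC1 and from 14850 ± 4293 to 38870 ± 5188 in D11. SPARC was also called higher in NC than in NT in both lines (log2 0.75 in TPC1 and 0.71 in D11). In D11 the same held for MMP2 (0.84), CDK6 (1.00) and the propeptide processing genes ADAMTS3 (1.06) and TLL2 (0.70). Of 14 other known miR-29 targets, 2 were called higher in TPC1 (TET3, PIK3R1) and 4 in D11 (TET3, PIK3R1, CDK6, HBP1) with medians of 0.33 and 0.50. TET3 rose by 0.67 and 0.93, and PIK3R1 by 0.67 and 0.91.

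The part of the fibroblast markers LUM and PDGFRB or the transfection in the collagen changes was not tested, beyond the values with NC alone. Nor was that of the weaker depletion in TPC1 siDicer replicate 2, beyond the values without that library given above. For PAX8, replicate 2 stood apart in every TPC1 group, at 14886 (NT), 13888 (NC) and 14165 (siDicer). The other TPC1 libraries held at most 9891. D11 siDicer replicate 2 held more DICER1 (451) than TPC1 siDicer replicate 2 (395). In that D11 library COL4A1, COL4A2 and COL12A1 lay above all D11 controls, while COL4A5 fell below NC replicate 2. What set TPC1 siDicer replicate 2 apart was not tested.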

How the data were processed

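The authors sequenced paired-end stranded mRNA libraries, aligned them to GRCh38 with STAR 2.5.3a, counted reads per gene of Ensembl release 90 with HTSeq 0.9.1 and normalised each library to 20 M aligned reads. The deposited values are a normalised score and not raw counts, rounded up to whole numbers. The step between values gave the worth of 1 read in each library, by which 99.24% to 99.91% of values were whole reads in 16 of the 18 libraries. Whether counting used strand is not given in the sources used here. Values were taken as log2(value + 1), a scale on which a fold change understates the change of low genes, and tested with limma 3.58.1 (lmFit, eBayes with trend) in R 4.3.3. Genes were fitted where 3 or more libraries held 10 or more. Benjamini-Hochberg adjustment ran over all genes of a fit, and calls needed adjusted p under 0.05 with a change of 1.5 times or more. D11 against TPC1 used transfection as a term, and the interaction used line, condition and their product. The authors name edgeR in their methods and DESeq2 for a heat map, and neither was run, since the values are not counts. Gene positions, exon lengths and 3′ UTRs came from GENCODE release 44 (57532 of 58302 gene IDs matched), on the build of the files.

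Every measured collagen is named, and those called in any comparison have the value of every library. Of the other lists, called genes with the smallest adjusted p in D11, up to 5, are named. The members, lists and alternatives were chosen with earlier results of these data known. Alternatives were RLE and TMM scaling, other filters and pseudocounts, no fold minimum, controls limited to NT or to NC, a replicate block, 1 fit of all libraries, voom on recovered reads, removal of a GC and length trend, and leaving out each library. Protein sequences were not used here, and 1 marker gene is not reported here.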

Additional observations from a re-analysis of the deposited data

Results flagged for a closer look

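A control library far from the other 5 of its line was found in 5 of 46 sets examined (23 collagens in each line), and chance flags about 1 in 20. COL14A1 stood at 34 in TPC1 NC replicate 1, with the others at 7 to 13. COL17A1 stood at 1342 in TPC1 NC replicate 2, with the others at 716 to 863. COL1A1 stood at 100 in TPC1 NT replicate 2, with the others at 67 to 77, and at 35 in D11 NT replicate 1, with the others at 77 to 94. COL6A5 stood at 28 in D11 NC replicate 1, with the others at 2 to 6. Without TPC1 NC replicate 1, COL14A1 was called higher after siDicer in TPC1, at log2 1.08.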

How the results depend on the processing

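No called result turned its direction under the alternatives run. Of the single-gene results recomputed, 2810 kept their side of the threshold, 52 lost a call and 24 gained one. The collagens called higher after siDicer fell from 10 to 5 in TPC1 and from 11 to 6 in D11 with NC alone as the control, where 1 was called lower in D11. The D11 median of 0.76 became 0.54 with a pseudocount of 10, 0.64 with the GC and length trend removed, 0.85 with NT alone and 0.48 with NC alone. In the main fit without COL6A5 it was 0.61. Leaving out 1 library gave 1 to 11 collagens higher in TPC1 and 9 to 12 in D11, medians of 0.47 to 0.68 and 0.61 to 0.81, and 0 to 1 higher for NC against NT in D11. That last count was 0 with no filter or a mean of at least 100, 2 with no fold minimum and 2 with 1 fit of all 18 libraries, a fit that gave 1 in TPC1. Over all genes in D11, 2 of 32716 were called higher with no filter, 23 of 12467 with that mean and 28 of 17992 with no fold minimum. The 1 fit called 111 of 19181 higher in D11 and 65 of 19181 in TPC1, from 27 and 6 in the main fits. TMM scaling moved the split over all genes in TPC1 from 594 higher and 769 lower to 844 and 581, and RLE to 745 and 651. In D11 it moved from 969 and 1243 to 1121 and 1073 with TMM and 1147 and 1046 with RLE. The cause of these shifts was not tested.

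The labels do not say what a replicate number marks. Deviations from the group means correlated above 0.1 in 9 of 9 same-numbered pairs in TPC1 and 8 of 9 in D11 over genes with a mean of at least 100, and in 7 of 9 and 9 of 9 over genes with at least 10 in 3 libraries. Over the second set, 9 of 9 libraries in each line correlated best with their own number. The main fits held no term for the replicate number, so what same-numbered libraries share stayed in their residual spread. The replicate block was run as an alternative. With the replicate block, 2 collagens were called higher for NC against NT in TPC1 (COL4A4, COL5A1) and 4 in D11, 5 were lower in D11 than in TPC1 (adding COL4A6 and COL7A1), and COL12A1 was called in TPC1, which made 11. Over all genes the block moved the NC against NT calls from 6 higher and 14 lower to 300 and 265 in TPC1. In D11 these moved from 27 and 36 to 195 and 120. The D11 against TPC1 calls moved from 27 and 164 to 67 and 318. The siDicer calls in TPC1 moved from 594 higher and 769 lower to 781 and 1015. Values under about 3 reads (2.58 to 5.32 on the scale of the values) cannot be told from 0.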
